A study of Mus musculus with 6 samples.

Results

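The genes described here are 3 nitric oxide synthases (Nos1, Nos2 and Nos3), the dimethylarginine dimethylaminohydrolases Ddah1 and Ddah2, the arginase Arg2, the cGMP-dependent protein kinase Prkg1 and the phosphodiesterase Pde5a. They were chosen by name, and each of the 8 matched 1 of the 54532 gene rows of the deposited table. Expression was measured by RNA sequencing in hearts of 12-week-old mice, with 1 library per mouse. In its discussion the study names left ventricular tissue as the source of the sequenced RNA. The WT group (n = 3) held littermates of the homozygous Mc4r KO mice (n = 3), all bred from heterozygous parents on the C57B/6/N background. Mc4r encodes the melanocortin-4 receptor, whose loss in mice leads to overeating and obesity. The line carried the deletion from the germline, so the loss was not limited to the heart, and no treatment of the mice is given. The study speaks of male animals.

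Nitric oxide synthases turn L-arginine into citrulline and nitric oxide, with tetrahydrobiopterin as a cofactor. Nitric oxide activates soluble guanylate cyclase, and the cGMP made there activates Prkg1, which relaxes smooth muscle and tunes calcium handling in cardiomyocytes. Nos3 is the endothelial enzyme, Nos1 the neuronal enzyme that is also found at the sarcoplasmic reticulum, and Nos2 the form that inflammatory signals induce. Ddah1 and Ddah2 belong to a family known for degrading asymmetric dimethylarginine, an inhibitor of the synthases, Arg2 competes for arginine in mitochondria, and Pde5a splits cGMP.

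The synthases are encoded by related sequences, so it matters whether a short read can be assigned to one of them. The following coding stretches of 60 bases are shown because they are among the most alike between family members, and capitals mark the 47 letters shared by all members of the family. They come from the GENCODE M21 transcripts, on the plus strand of GRCm38. The Nos1 stretch lies in exon 11 (chr5:117910067-117910126), that of Nos2 in exon 12 (chr11:78944669-78944728) and that of Nos3 in exon 10 (chr5:24371614-24371673).
Nos1: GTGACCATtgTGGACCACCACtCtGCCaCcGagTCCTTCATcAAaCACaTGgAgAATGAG
Nos2: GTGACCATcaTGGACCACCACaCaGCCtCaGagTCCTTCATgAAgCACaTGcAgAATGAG
Nos3: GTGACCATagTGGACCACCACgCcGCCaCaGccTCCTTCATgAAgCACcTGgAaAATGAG
Even here the differing letters were spread along the stretch. The longest run of identical bases in the coding sequences was 20 between Nos1 and Nos2, 23 between Nos1 and Nos3 and 22 between Nos2 and Nos3.

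The Ddah pair is shown in the same way. The Ddah1 stretch joins exons 2 and 3 (chr3:145845789-145845804 and chr3:145852251-145852294), and that of Ddah2 joins exons 3 and 4 (chr17:35060687-35060702 and chr17:35060833-35060876).
Ddah1: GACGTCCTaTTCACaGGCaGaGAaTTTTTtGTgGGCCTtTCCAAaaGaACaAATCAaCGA
Ddah2: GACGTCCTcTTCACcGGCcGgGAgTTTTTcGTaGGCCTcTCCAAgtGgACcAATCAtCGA
Their longest identical run was 9 bases. No stretch of 50 bases in the transcripts of Nos2, Nos3, Ddah1 or Ddah2 was found in the transcripts of another gene, read in the same direction. The opposite strand was not searched, and there exons of other genes lie across 32.3% of the exonic bases of Nos3.

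The libraries held between 14691076 and 16047003 reads on genes. Values are FPKM, the fragments on a gene scaled to its length and to a factor for each library. Levels can therefore also be set against each other between genes. The factor did not follow the reads on genes alone. In WT replicate 1 (14767929 reads on genes) a read on 1 kb was worth 0.0709 FPKM. In Mc4r KO replicate 1 (14691076 reads on genes) it was worth 0.0644 FPKM. Mitochondrially encoded genes held 59.3%, 57.4% and 47.1% of all FPKM in WT mice 1, 2 and 3. In the Mc4r KO mice they held 43.6%, 46.6% and 43.0%. Values are given in this order throughout. WT replicate 3 stood apart on the second principal component (23.0% of variance). The summed FPKM of the atrial markers Myl7, Myl4 and Sln was 433 in that library against 0.424 to 55.4 in the other 5 libraries. Its score on the first component (40.4% of variance), -3.46, fell between the groups. Scores ran from -34.2 to -27.9 for the remaining WT mice, but from 17.5 to 26.8 in Mc4r KO. Its correlation was 0.962 with Mc4r KO replicate 1, against 0.946 with WT replicate 1 and 0.952 with WT replicate 2. For Mc4r KO replicates 2 and 3 it was 0.951 and 0.952. The 7 ventricular markers summed to 14332, 14729 and 13802 FPKM in the WT and to 16798, 18353 and 17546 FPKM in the Mc4r KO libraries, higher in all of the latter, with 0 called and 6 of 7 positive fold changes. A label names the tissue as muscle. The 6 skeletal muscle markers together summed to between 1.04 and 2.25 FPKM, of which the myosins Myh1, Myh2 and Myh4 had at most 3 reads in every library and the other 3 passed the filter. Mc4r itself had 2 reads in WT replicate 3 and 0 in the other 5 libraries, so its transcript could not check the genotypes.

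In brief, Nos2 was at 0.471 times and Pde5a at 0.665 times the WT level in the Mc4r KO hearts. For both, all Mc4r KO libraries lay below all WT libraries, as they did for 12.4% of all genes tested. Neither passed the threshold, an adjusted p under 0.05 in limma with an absolute log2 fold change above 0.75. Nos3, Ddah1, Ddah2, Prkg1, Arg2 and Nos1 had overlapping groups. Of the wider pathway, 50 further genes were tested. Pde1c and Cav3 had the lowest adjusted p among them, and neither passed the threshold.

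Of the 8 members, 7 reached a mean FPKM of 0.1 and were tested, and Nos1 did not. Of these 7, 0 were called, against a background of 0.46% of the 18035 genes tested (83 calls, 57 higher and 26 lower). At an unadjusted p under 0.05 there were 2 members and 3761 genes. Fitted fold changes were positive for 4 and negative for 3 members, with a median log2 fold change of 0.10 against -0.01 over all genes tested. The 3 Mc4r KO libraries all lay below the 3 WT libraries for 2 members and above them for 0. Over all genes tested, 12.4% lay below and 14.1% above in this sense. With 3 mice against 3, the two-sided exact permutation test of a single gene cannot go below 0.1.

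**Figure D1:**
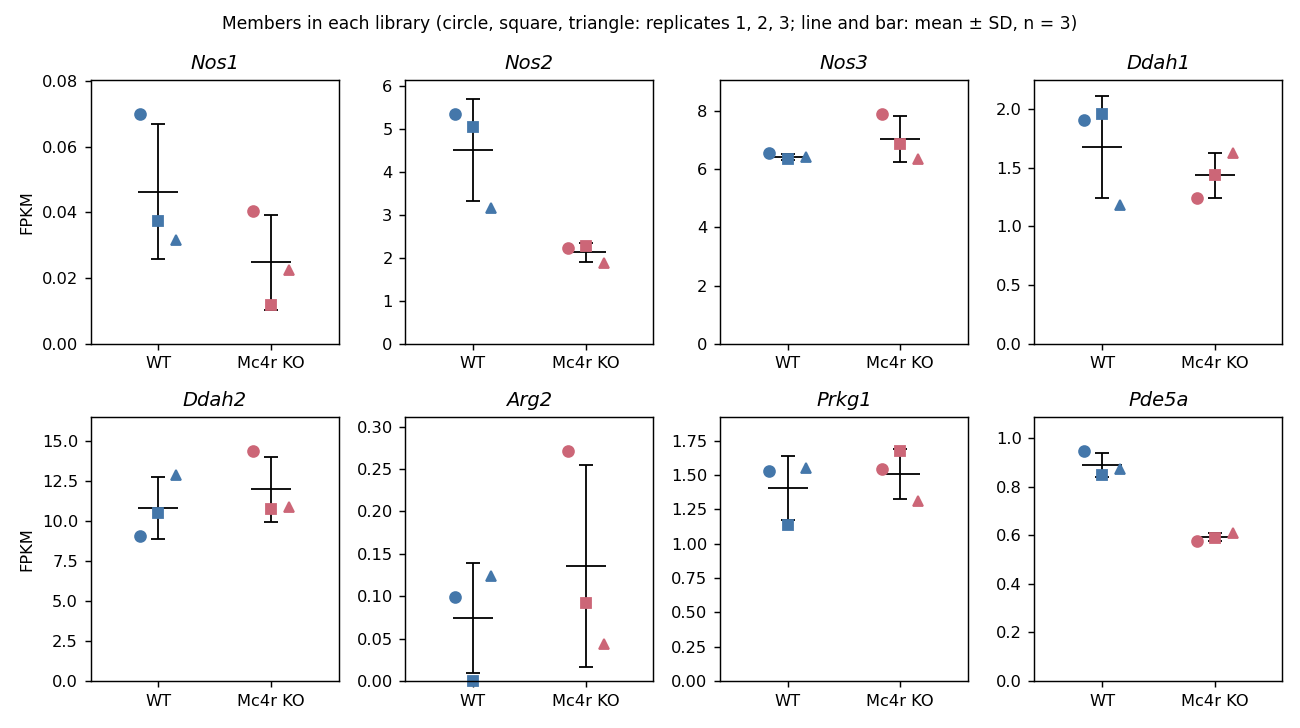
FPKM of the 8 members (vertical axes, linear from 0, each panel with its own range) in the WT and Mc4r KO libraries; symbols are the 3 replicates and the line and bar the mean ± SD (n = 3). For Nos2 and Pde5a all Mc4r KO libraries lie below all WT libraries, while the groups overlap for the other 6 genes.

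Nos2, the inducible synthase (ENSMUSG00000020826, chromosome 11, 78920787 to 78960254, plus strand, mm10), stood at 5.34, 5.03 and 3.15 FPKM in WT. In Mc4r KO it stood at 2.23, 2.27 and 1.86 FPKM. WT replicate 3 was the lowest of the WT libraries and lay closer to the Mc4r KO libraries, yet still above all of them. The mean was 4.51 ± 1.18 FPKM in WT and 2.12 ± 0.224 FPKM in Mc4r KO (SD, n = 3 each), resting on 132 to 332 reads per library. For Nos2 the log2 fold change was -1.02 (SE 0.21, 95% interval -1.51 to -0.53) with a limma adjusted p of 0.0766, and the exact permutation p was 0.1. Nos2 was also among the genes that the study measured by RT-qPCR, and how those were chosen is not given in the sources used here.

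The call on Nos2 turned on the libraries and the fit. Without WT replicate 3 the log2 fold change was -1.25 with an adjusted p of 0.00816 in limma, and 4.04% of all genes tested were called in that fit. It was also called among protein-coding genes only (adjusted p = 0.0413, background 1.51%), with array weights that give deviating libraries less weight (adjusted p = 0.0287, background 2.41%) and with limma voom on the recovered reads (adjusted p = 0.0282, background 1.74%). These are 4 of 21 alternatives. Among the 21, FPKM as deposited and the fold change of 1.5 could only repeat the reported result for Nos2, as they could for Pde1c and Cav3 below. The 6 libraries had the same order in Nos2 as in the mitochondrial share, from WT replicate 1 down to Mc4r KO replicate 3. With that share as a covariate the log2 fold change was -0.40 with an adjusted p of 0.482 in limma. The summed FPKM of 5 pericyte markers, of which 0 were called, was also highest in WT replicates 1 and 2, with 333, 318 and 217 in the WT and 236, 242 and 223 in the Mc4r KO libraries. Of these pericyte markers 1 of 5 had a positive fold change, and the median log2 fold change was -0.10. The part of pericyte content was not tested. The 10 macrophage markers, cells in which Nos2 is readily induced, summed to 222, 200 and 314 FPKM in the WT and 316, 270 and 248 FPKM in the Mc4r KO libraries, again with 0 called. In whole tissue, fewer cells of a type and less RNA per cell cannot be told apart.

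Nos3, the endothelial synthase (ENSMUSG00000028978, chromosome 5, 24364810 to 24384474, plus strand), was the most abundant of the synthases in every library. It stood at 6.56, 6.35 and 6.42 FPKM in WT and at 7.91, 6.87 and 6.37 FPKM in Mc4r KO. The WT values were tightly grouped, and Mc4r KO replicate 3 lay within them. The log2 fold change was 0.12 (SE 0.11, 95% interval -0.13 to 0.37, limma adjusted p = 0.552). The interval ends below 0.75, the size required for a call. The 10 endothelial markers summed to between 215 and 249 FPKM in WT and between 227 and 260 FPKM in Mc4r KO, with 0 called. In GENCODE M21, 32.3% of the exonic bases of Nos3 lie opposite exons of Atg9b and Gm15587, and the use of strand in counting is not given in the sources used here. Atg9b was itself at most 0.706 FPKM in any library. That value comes from the same counting, so it cannot settle whether the overlap affects Nos3.

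Nos1, the neuronal synthase (ENSMUSG00000029361, chromosome 5, 117781032 to 117958840, plus strand), was near the limit of detection. Its transcript was hit by 11, 6 and 6 reads in WT. Mc4r KO replicates had 7, 2 and 4. These levels are 0.0700, 0.0375 and 0.0316 FPKM in WT and 0.0404, 0.0118 and 0.0224 FPKM in Mc4r KO. The groups overlapped, since Mc4r KO replicate 1 lay above WT replicates 2 and 3. The sums of 23 and 13 reads have exact Poisson 95% intervals of 14.6 to 34.5 and 6.92 to 22.2, which cover counting error only, and the exact permutation p on FPKM was 0.3. A difference in Nos1 was not detectable at this depth. Of the neuronal markers, Th and Prph had at most 3 reads in every library.

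The make-up of the synthase transcripts was then described from the summed FPKM of the 3 genes. Nos2 made up 44.6%, 44.1% and 32.8% of the sum in the WT hearts. In the Mc4r KO hearts its share was 21.9%, 24.8% and 22.6%. The groups did not overlap (40.5 ± 6.65% against 23.1 ± 1.49%, SD, n = 3 each, exact permutation p = 0.1), and the WT mean without replicate 3 was 44.3%. Nos3 accounted for nearly all of the rest. Because Nos3 varied little, the Nos2 share largely repeats the Nos2 values above and is not a separate result. The sum itself was 12.0, 11.4 and 9.61 FPKM in WT and 10.2, 9.15 and 8.25 FPKM in Mc4r KO. These sums overlapped, and the exact permutation p of their difference was 0.2.

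**Figure D2:**
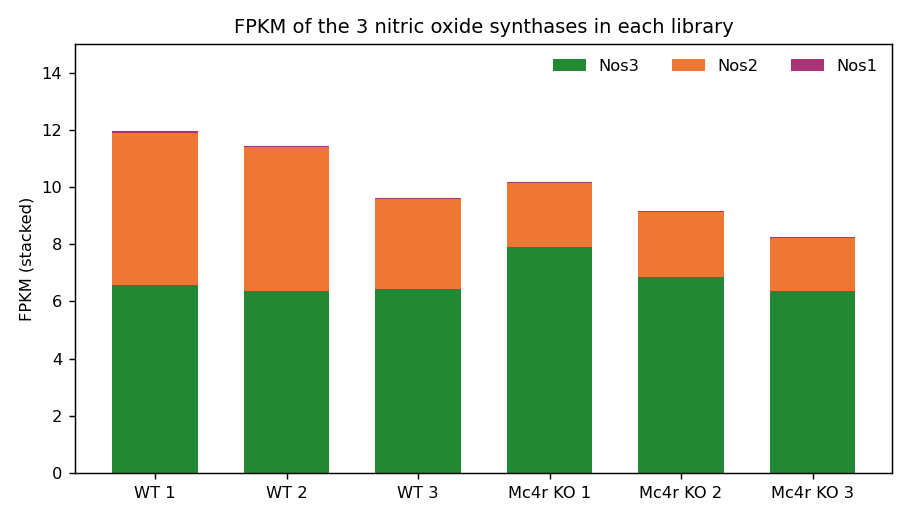
Stacked FPKM (vertical axis, from 0) of Nos3, Nos2 and Nos1 in each of the 6 libraries (horizontal axis). The Nos2 segment spans 3.15 to 5.34 FPKM in WT and 1.86 to 2.27 FPKM in Mc4r KO, the Nos3 segment lies between 6.35 and 7.91 FPKM throughout, and Nos1 is barely visible.

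The genes whose pattern over the 6 libraries was most like that of each synthase were ranked by Pearson's r of log2(FPKM + 0.1), among genes averaging 1 FPKM or more. For Nos2 they were Trim24 (r = 0.997), Fam76a (0.996) and Gnptab (0.996), and 292 of 11296 genes exceeded 0.95. For Nos3 they were Gm5805 (0.973), Apobec1 (0.969) and Emp1 (0.964), with 5 genes over 0.95. For Nos1 they were Fundc1 (0.993), Ddx5 (0.990) and Zfp263 (0.986), with 29 genes over 0.95. The points share library, mitochondrial share and genotype, so these values describe likeness among 6 libraries and no more.

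Ddah2 (ENSMUSG00000007039, chromosome 17, 35059035 to 35062095, plus strand) had the highest level of all members. It stood at 9.04, 10.5 and 12.9 FPKM in WT and at 14.4, 10.8 and 10.9 FPKM in Mc4r KO. The highest library was a Mc4r KO one and the lowest a WT one, with the others interleaved. For Ddah2 the log2 fold change was 0.15 (SE 0.17, 95% interval -0.24 to 0.54, limma adjusted p = 0.636).

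Ddah1 (ENSMUSG00000028194, chromosome 3, 145758675 to 145894277, plus strand) was several times lower. It stood at 1.91, 1.96 and 1.18 FPKM in WT and at 1.25, 1.44 and 1.63 FPKM in Mc4r KO. WT replicates 1 and 2 lay above all Mc4r KO libraries and WT replicate 3 below them all. For Ddah1 the log2 fold change was -0.19 (SE 0.22, 95% interval -0.70 to 0.33, adjusted p = 0.665 in limma), and it ranged from -0.0693 without WT replicate 2 to -0.41 without WT replicate 3. The ratio of Ddah2 to Ddah1 ranged from 4.74 to 10.9 in WT and from 6.68 to 11.5 in Mc4r KO, with an exact permutation p of 0.5.

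Arg2, the mitochondrial arginase (ENSMUSG00000021125, chromosome 12, 79130777 to 79156301, plus strand), was covered by 2, 0 and 3 reads in WT hearts and by 6, 2 and 1 reads in Mc4r KO hearts. Its FPKM was 0.0993, 0 and 0.123 in WT and 0.271, 0.0922 and 0.0436 in Mc4r KO. The groups overlapped, and the group sums of 5 and 9 reads had exact Poisson 95% intervals of 1.62 to 11.7 and 4.12 to 17.1. The log2 fold change of 0.40 had an interval of -0.97 to 1.77 (SE 0.58, limma adjusted p = 0.737), so a difference was not detectable at this depth. In addition, 28.1% of its exonic bases lie opposite exons of Vti1b and Gm48780, and Vti1b had a mean FPKM of 44.3 in WT.

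Prkg1, the cGMP-dependent kinase (ENSMUSG00000052920, chromosome 19, 30567551 to 31765033, minus strand), was expressed at levels near those of Ddah1. It stood at 1.53, 1.13 and 1.55 FPKM in WT and at 1.54, 1.67 and 1.31 FPKM in Mc4r KO. The libraries of both groups were interleaved. For Prkg1 the log2 fold change was 0.10 (SE 0.18, 95% interval -0.31 to 0.52, limma adjusted p = 0.780), and a KO level 0.75 higher or lower on the log2 scale lies outside this interval. The gene has start sites at 31765033 and 31664370 in RefSeq (GRCm38.p6), and FPKM per gene cannot tell their transcripts apart.

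Pde5a, the cGMP-specific phosphodiesterase that sildenafil inhibits (ENSMUSG00000053965, chromosome 3, 122728947 to 122859374, plus strand), stood at 0.945, 0.850 and 0.872 FPKM in WT. In Mc4r KO it stood at 0.577, 0.589 and 0.609 FPKM. Both groups were narrow and well apart. The mean was 0.889 ± 0.0498 FPKM in WT and 0.592 ± 0.0161 FPKM in Mc4r KO (SD, n = 3 each), from 88 to 146 reads per library. The log2 fold change was -0.52 (SE 0.17, 95% interval -0.91 to -0.12) with an unadjusted p of 0.0178 and an adjusted p of 0.155 in limma. It was called in 0 of 20 alternatives, whose adjusted p ranged from 0.0676 to 0.604. Their log2 fold changes ranged from -0.69 to -0.25, and each fell short of the size needed for a call. No call was therefore possible at any p, and the count does not speak to how stable the result is.

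Markers of other cells were set beside Pde5a. The 7 fibroblast markers summed to between 190 and 195 FPKM in WT and between 140 and 160 FPKM in Mc4r KO, with 0 called and 2 of 7 positive fold changes. Their part in the Pde5a values was not tested. The 7 smooth muscle markers, from cells known for Pde5a, summed to 72.3, 86.8 and 109 FPKM in the WT and 135, 151 and 72.8 FPKM in the Mc4r KO libraries. Of these markers 0 were called, 6 of 7 had positive fold changes and the median log2 fold change was 0.42. Their part in the Pde5a values was not tested either.

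**Figure D3:**
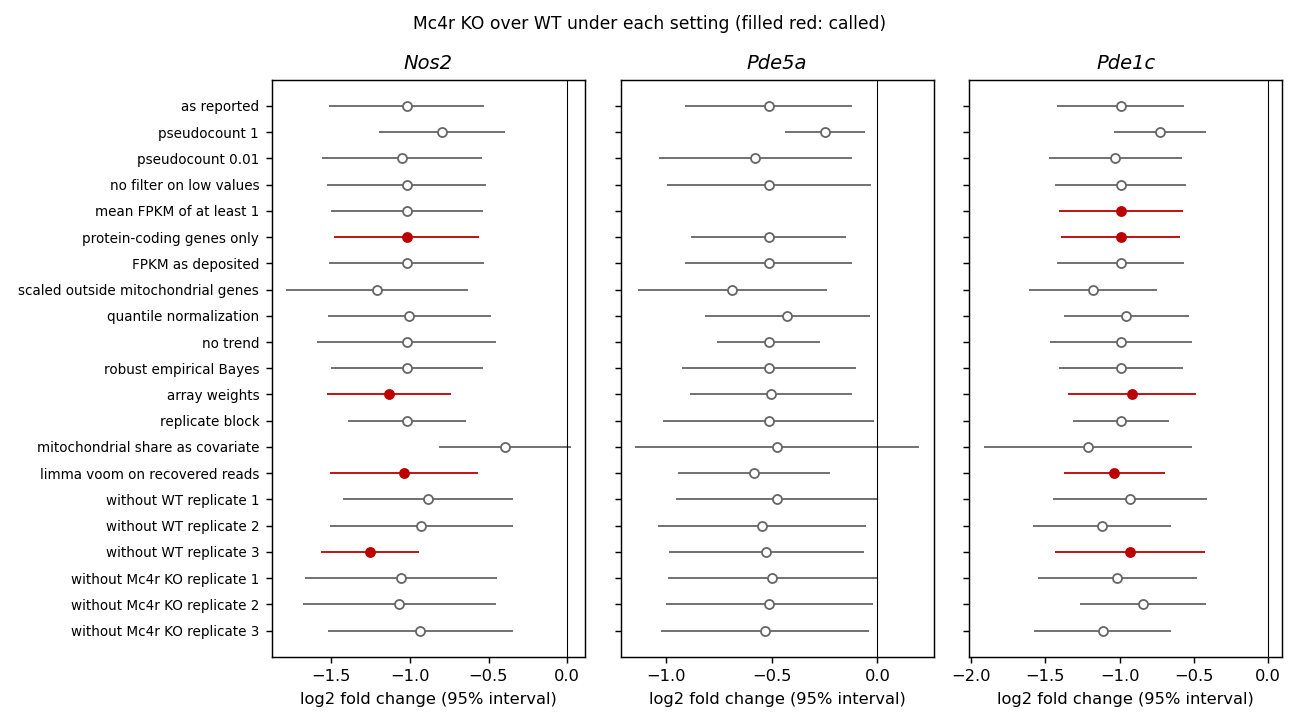
Log2 fold change, Mc4r KO over WT, with its 95% interval (horizontal axes, each panel with its own range) for Nos2, Pde5a and Pde1c under the reported fit and the other settings (vertical axis); filled red points passed the threshold, and Pde5a has no point at a mean FPKM of at least 1, where it was not tested. All points lie on the same side of 0 for each gene, and Nos2 is closest to 0 with the mitochondrial share as covariate, at -0.40. Settings of filter, gene set, trend, robust fit and replicate block could only repeat the reported fold change.

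In WT the order of the mean levels, in FPKM, was Ddah2, Nos3, Nos2, Ddah1, Prkg1, Pde5a, Arg2 and Nos1. Ddah1 and Prkg1 overlapped there, as did Arg2 and Nos1, and the other neighbours did not. In Mc4r KO the order was the same except that Prkg1 came before Ddah1, and these were the only neighbours that overlapped. The Prkg1 FPKM rests on a gene length of 7799 bases, against 10861 exonic bases in GENCODE M21. Its place beside Ddah1 therefore depends on the gene model.

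The wider pathway was taken from a list of 56 further genes of nitric oxide and cGMP signalling, of which 50 passed the filter and Gucy1b2, Prkg2, Arg1, Agxt2, Kcnma1 and Trpc6 did not. Of these 50, 0 were called, against the background of 0.46%. Fold changes were positive for 23 and negative for 27, with a median log2 fold change of -0.04. The Mc4r KO libraries all lay above the WT libraries for 7 of the 50 and all below for 6, against 14.1% and 12.4% of all genes tested. An unadjusted p under 0.05 in limma was reached by 8 of the 50, against 3761 of all 18035 genes tested. Limma voom on the recovered reads called 2 of the 50, and 1.74% of all genes tested.

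**Figure D4:**
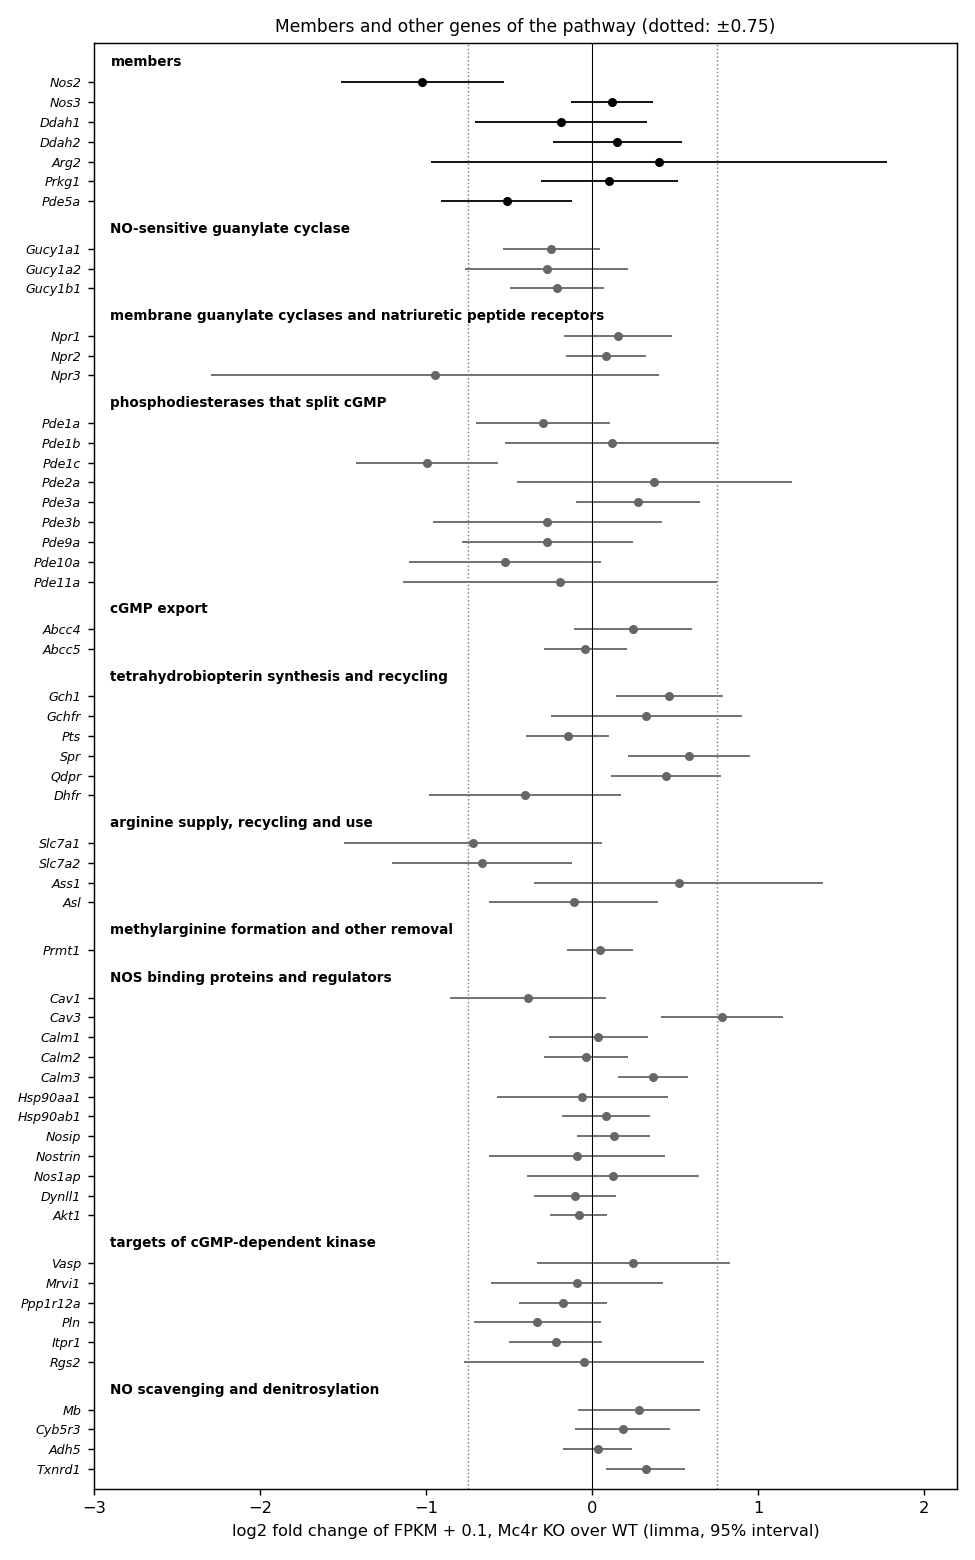
Log2 fold change of FPKM + 0.1, Mc4r KO over WT, with 95% limma intervals (horizontal axis) for the 7 tested members and 50 tested pathway genes, grouped by role (vertical axis); dotted lines mark 0.75 in either direction. Nos2 at -1.02, Pde1c at -0.99 and Cav3 at 0.78 lie beyond a dotted line with an interval that leaves out 0, and none of them was called.

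The 12 binding proteins and regulators of the synthases gave 0 calls, and 6 of them had positive fold changes. The chaperone gene Hsp90ab1 was the most abundant, at 349, 397 and 364 FPKM in WT and 359, 437 and 383 FPKM in Mc4r KO (log2 fold change 0.08, limma adjusted p = 0.717). Cav3, the muscle caveolin, stood at 30.2, 28.3 and 40.2 FPKM in WT and at 48.6, 62.6 and 58.0 FPKM in Mc4r KO. Its groups did not overlap, its log2 fold change was 0.78 with an adjusted p of 0.0744 in limma, and it was called in 4 of 21 alternatives. Without WT replicate 3 its log2 fold change was 0.94 with a limma adjusted p of 0.0127, and with the mitochondrial share as covariate it was 0.47 with an adjusted p of 0.502. The summed ventricular markers were also higher in every Mc4r KO library, and their part in the values of this muscle gene was not tested.

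Among the enzymes that make and recycle tetrahydrobiopterin, 0 of 6 were called, 4 had positive fold changes and the median log2 fold change was 0.39. The Mc4r KO libraries lay above the WT libraries for 3 of the 6, namely Gch1, which catalyses the first and rate-limiting step, Spr, the last step, and Qdpr, which recycles the oxidised cofactor. Spr stood at 10.6, 9.68 and 14.6 FPKM in WT and at 15.9, 18.1 and 17.7 FPKM in Mc4r KO, with a log2 fold change of 0.58 and an adjusted p of 0.115 in limma. It was called in 1 of 21 alternatives. Qdpr had the highest level, at 14.4, 16.1 and 20.1 FPKM in WT and 21.1, 25.7 and 21.8 FPKM in Mc4r KO (log2 fold change 0.44, adjusted p = 0.148 in limma). Over all genes tested, 14.1% had all Mc4r KO libraries above all WT libraries. In both Spr and Qdpr WT replicate 3 was the WT library nearest to the Mc4r KO group.

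The 3 tested subunits of the nitric oxide-sensitive guanylate cyclase had negative fold changes, a median of -0.24 on the log2 scale, and 0 calls. Gucy1b1, the shared beta subunit, stood at 8.98, 8.67 and 8.15 FPKM in WT and at 7.84, 8.25 and 6.32 FPKM in Mc4r KO. The groups overlapped, with a log2 fold change of -0.21 and a limma adjusted p of 0.373. Gucy1a2, an alpha subunit, had a log2 fold change of -0.27 and a limma adjusted p of 0.502.

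Of the receptors that make cGMP or bind natriuretic peptides, 0 of 3 were called. Npr2, the receptor of C-type natriuretic peptide, stood at 11.7 to 13.3 FPKM in WT and at 12.7 to 14.985 FPKM in Mc4r KO (log2 fold change 0.08, limma adjusted p = 0.676). Npr3, the clearance receptor, ranged from 2.25 to 7.75 FPKM in WT and from 0.932 to 3.84 FPKM in Mc4r KO, with a log2 fold change of -0.94 (SE 0.57) and a limma adjusted p of 0.397. It was highest in WT replicate 3, the library with the highest atrial marker sum. Without that library its log2 fold change was -0.48, without Mc4r KO replicate 2 it was -0.42, and with the mitochondrial share as covariate it was -2.37.

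Besides Pde5a, 9 phosphodiesterases that split cGMP were tested, 0 were called and the median log2 fold change was -0.27. The Mc4r KO libraries lay below the WT libraries for 3 of the 9, namely Pde1a, Pde1c and Pde10a, as they did for 12.4% of all genes tested. Pde1c, a calmodulin-dependent enzyme of cardiomyocytes, stood at 3.81, 2.92 and 3.81 FPKM in WT and at 1.77, 1.37 and 2.04 FPKM in Mc4r KO. Its log2 fold change was -0.99 (SE 0.18, limma adjusted p = 0.0639), and it was called in 5 of 21 alternatives, whose adjusted p ranged from 0.00847 to 0.259. Pde3a, which cGMP inhibits, was the most abundant, at 5.91 to 7.66 FPKM in WT and 7.21 to 9.96 FPKM in Mc4r KO (log2 fold change 0.28, limma adjusted p = 0.373). The cGMP exporters gave 0 calls, with log2 fold changes of 0.25 for Abcc4 and -0.04 for Abcc5 (limma adjusted p = 0.400 and 0.861).

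Of the genes of arginine supply, recycling and use, 4 were tested and 0 called. Slc7a1, the main arginine transporter, stood at 4.60, 5.89 and 6.64 FPKM in WT and at 3.63, 2.004 and 5.36 FPKM in Mc4r KO. The groups overlapped, with a log2 fold change of -0.72 (SE 0.33) and a limma adjusted p of 0.273. Prmt1, which forms asymmetric dimethylarginine, had a log2 fold change of 0.05 (95% interval -0.15 to 0.25, limma adjusted p = 0.784).

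Of the targets of the kinase, 6 were tested and 0 called. Pln, the phospholamban that restrains the calcium pump, stood at 690, 601 and 452 FPKM in WT and at 434, 470 and 461 FPKM in Mc4r KO, with a log2 fold change of -0.33 and a limma adjusted p of 0.303. It lies opposite exons of Cep85l and Gm47644 over 64.7% of its exonic bases. Of the 4 genes that scavenge nitric oxide or remove it from proteins, 0 were called and all 4 had positive fold changes, with a median of 0.23 on the log2 scale. Mb, which encodes myoglobin, ranged from 3550 to 3893 FPKM in WT and from 4469 to 4700 FPKM in Mc4r KO (log2 fold change 0.28, limma adjusted p = 0.355), and 31.9% of its exonic bases lie opposite other exons. Like the ventricular marker sum, Mb was higher in every Mc4r KO library, and the part of that sum was not tested. Txnrd1, the cytosolic thioredoxin reductase, had a log2 fold change of 0.32 with a limma adjusted p of 0.146.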

How the data were processed

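Polyadenylated RNA from the heart was prepared with the NEBNext Ultra kit. The authors aligned reads with HISAT2 2.0.5 to mm10 (submitters' processing notes), counted them with featureCounts, tested with DESeq2 and deposited FPKM per gene. The annotation release and strand setting are not given in the sources used here. Identifiers matched GENCODE M21 for 99.8% of 54532 rows. FPKM times gene length gave whole reads for 100% of values (tolerance 0.02 read), and all per-library columns were matched. A read on 1 kb was worth 0.0587 to 0.0709 FPKM, which sets the precision for low genes.

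Because the unit is FPKM, limma (3.58.1, R 4.3.3, with trend) was run on log2(FPKM + 0.1) after median-of-ratios scaling, with no covariate and Benjamini-Hochberg adjustment over the 18035 genes whose mean FPKM reached 0.1. The median-of-ratios scaling left the relative levels unchanged, since its factor was the same in all libraries. Fold changes on this scale understate those of low genes. Single values used exact two-sided permutation tests (scipy 1.17.1). Scripts were tested on simulated data. All 6 libraries entered, grouped by the labelled genotype. Members and lists were chosen with earlier results of these data known. Results for 1 gene of the pathway list and 1 marker are not reported here, and all counts for those lists leave them out. Named pathway genes are, per role, the one with the highest FPKM and the one with the largest change; Gch1, Pde1a and Pde10a were named after their values were seen. Alternatives were pseudocounts of 1 and 0.01, no filter, a mean FPKM of at least 1, protein-coding genes only, FPKM as deposited, scaling outside the mitochondrial chromosome, quantile normalization, no trend, robust fit, array weights, replicate block, mitochondrial share as covariate, limma voom on recovered reads, a fold change of 1.5, and leaving out each library.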

Additional observations from a re-analysis of the deposited data

How the results depend on the processing

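Across the fold changes of the named genes, 421 alternative values kept direction and side of the threshold, 14 newly passed it and 17 changed sign. These leave out FPKM as deposited, which equals the reported fit because the scaling factors were the same in all libraries. Fold changes also stayed as reported without filter, at a mean FPKM of at least 1 and among protein-coding genes. The same held without trend, with the robust fit and with the replicate block. In these settings direction could not change, and only a gene already beyond the fold change required for a call could change side. Part of the 421 was therefore fixed in advance. The number of members called was 0 as reported and 1 (Nos2) among protein-coding genes, with array weights and with voom, and 0 to 1 on leaving out a library, the 1 being without WT replicate 3. Calls in the pathway list, 0 as reported, were 1 (Pde1c) at a mean FPKM of at least 1, 2 (Pde1c and Cav3) among protein-coding genes, with array weights and with voom, 0 with the replicate block, and 0 to 3 on leaving out a library, the 3 (with Spr) being without WT replicate 3. Calls over all genes, 83 as reported, were 44 with a pseudocount of 1, 22 without filter, 147 at a mean FPKM of at least 1, 204 among protein-coding genes, 41 with scaling outside the mitochondrial chromosome, 49 with quantile normalization, 21 without trend, 435 with array weights, 11 with the replicate block, 2 with the mitochondrial share as covariate, 314 with voom, and 7 to 726 on leaving out a library (726 without WT replicate 3). The cause was not tested.

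Scaling outside the mitochondrial chromosome shifted the median over all genes tested from -0.01 to -0.19 on the log2 scale, and turned Nos3 to -0.0715, Ddah2 to -0.0419, Prkg1 to -0.0794, Npr2 to -0.11, Prmt1 to -0.15 and Hsp90ab1 to -0.11. With the mitochondrial share as covariate, Ddah1 was 0.35, Ddah2 -0.23, Arg2 -0.0555, Gucy1a2 0.0161, Npr2 -0.056, Abcc5 0.0874 and Pln 0.13. With quantile normalization, Npr2 was -0.0195, Prmt1 -0.0653 and Hsp90ab1 -0.11. Prkg1 ranged from -0.0357 to 0.20 on leaving out a library. Same-numbered libraries did not deviate together (correlations of -0.14, 0.01 and -0.08). With so few libraries this cannot settle whether the numbers pair mice. Arg2 and Pde5a could not be tested at a mean FPKM of at least 1, nor Arg2 without Mc4r KO replicate 1. Depth limits Nos1 and Arg2, at 0 to 11 reads per library.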
